A study of Mus musculus with 12 samples.

Results

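NRF2, the transcription factor encoded by Nfe2l2, and 9 genes tied to it were followed through the cortex of CD mice and wild-type (WT) mice after co-treatment with verapamil and curcumin. The set was chosen by gene symbol and holds the factor itself, its inhibitor Keap1 and 8 known target genes (Hmox1, Nqo1, Gclc, Gclm, Srxn1, Txnrd1, Slc7a11 and Osgin1). All 10 were found among the 17202 genes of the table, and all 10 were among the 17111 genes tested, whose mean over the mice reached 10 normalized counts. CD mice are a model of Williams–Beuren syndrome in which 1 of the copies of the interval between Gtf2i and Fkbp6 on chromosome 5 is deleted. Cortex RNA was sequenced from 12 mice, 3 in each of 4 groups: VEH-WT and VEH-CD mice, which received no drug, and VERCUR-WT and VERCUR-CD mice, which drank both compounds. The labels give curcumin at 60 mg/kg/day and verapamil at 10 mg/kg/day, started at 8 weeks of age and given for 1 month, with cortex taken at 16 weeks, on a C57Bl6 background. The study's methods state a lower verapamil dose and a younger age at the end, and describe the vehicle as water with DMSO where the labels say untreated. They also state that treatment went on through the behavioural tests until the mice were killed, where the labels give 1 month. The methods add that all mice were male, that the cortex was frontal and that CD mice had been crossed with Thy1-YFP mice.

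In resting cells KEAP1 holds NRF2 in the cytoplasm and, with CUL3, sends it to the proteasome. Oxidants and electrophiles such as curcumin modify cysteines of KEAP1, so that NRF2 escapes, enters the nucleus and, with a small MAF protein, binds antioxidant response elements near its targets. In brain, several of these targets are known mainly from astrocytes, which supply neurons with precursors of glutathione. NRF2 is regulated largely as a protein, and RNA-seq measures the mRNA of the factor and of its targets only.

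The core of the antioxidant response element, TGACNNNGC, was searched on both strands in RefSeq promoter windows of GRCm38.p6, each 300 bases long, from 250 bases before to 50 after a transcription start. Its first letters, TGAC, also begin the AP-1 motif. Of all 32851 windows, 12.4% held it. Windows were at hand for 8 members (10 windows, 3 of them for Txnrd1), and 4 members had a match: Nfe2l2, Gclm, Srxn1 and Txnrd1. No match was found in the windows of Keap1, Nqo1, Slc7a11 or Osgin1, which says only that these letters are not in them. The 4 matches are shown because they are the stretches where NRF2 could bind by this rule. Each is printed 5′ to 3′ on the strand that reads as the motif, with 8 flanking bases on either side, and the capitals mark the motif.
Nfe2l2 (chr2:75704887-75704911, minus strand, 236 bases before the start): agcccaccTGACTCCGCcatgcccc
Gclm (chr3:122245415-122245439, minus strand, 130 bases before the start): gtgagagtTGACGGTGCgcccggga
Srxn1 (chr2:152105544-152105568, minus strand, 32 bases after the start): tctcactcTGACCTAGCtgcccact
Txnrd1 (chr10:82859106-82859130, minus strand, 88 bases before 1 of its 3 starts): tgtcagaaTGACAAAGCaaaaatcc
These matches are descriptions of the letters and not measured binding sites.

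The authors deposited normalized counts, the reads counted on a gene divided by 1 factor per mouse. The number of counted reads ranged from 40287647 to 56480948 per mouse. Expression of 19 genes of the deleted region, relative to the VEH-WT mean, had a median of 0.468 to 0.530 in the 6 CD mice and of 0.959 to 1.04 in the 6 WT mice, so the genotypes matched the labels. All 6 markers of excitatory cortical neurons were present in every mouse, and no gene of the 10 marker lists used for cell types and neuronal activity was called in any comparison. The immediate early gene and astrocyte lists differed between mice, and their values are given beside Hmox1 and Slc7a11. Their part in the members was not tested. The oligodendrocyte list differed between mice as well, with a median level relative to VEH-WT of 0.417 to 1.10 in VERCUR-WT and 0.772 to 1.26 in VEH-WT mice. In bulk cortex, fewer cells of a type and less RNA per cell cannot be told apart.

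Compared per length of their exons, the members spanned a wide range of levels in this cortex. Srxn1, which encodes the sulfiredoxin that restores overoxidized peroxiredoxins, was the most abundant, with 1687 ± 73.3 normalized counts per kb (SD, n = 12). Keap1 followed with 850 ± 35.1, Gclc with 548 ± 37.5, Gclm with 365 ± 27.4 and Txnrd1 with 343 ± 30.4 normalized counts per kb. Nfe2l2 itself had 171 ± 15.5, Slc7a11 131 ± 37.9, Hmox1 114 ± 19.7 and Nqo1 87.3 ± 11.0 normalized counts per kb. Osgin1, an oxidative stress-induced growth inhibitor, was barely expressed, with 8.77 ± 2.49 normalized counts per kb, from 13 to 35 reads per mouse. Ranges over the 12 mice did not overlap between Srxn1 and Keap1, between Keap1 and Gclc or between Gclc and Gclm, and they did overlap between Gclm and Txnrd1 and between each neighbouring pair from Nfe2l2 to Nqo1. Spread did not follow this order: over all mice the coefficient of variation was 4.13% for Keap1 and 4.34% for Srxn1, against 29.0% for Slc7a11 and 28.3% for Osgin1.

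**Figure D1:**
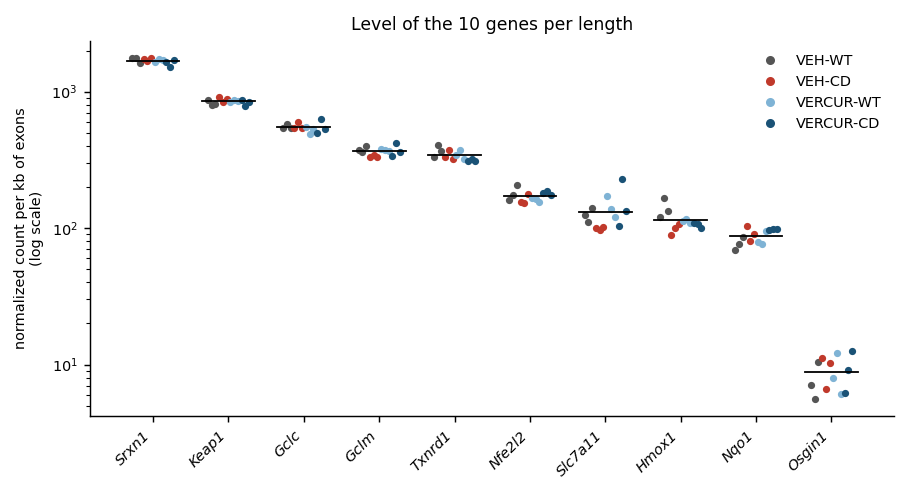
Normalized counts per kb of merged exons (log axis) of the 10 members, with 1 point per mouse coloured by group and a line at the mean of 12 mice. Srxn1 has the highest mean (1687) and Osgin1 the lowest (8.77), and the colours are mixed within most members.

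None of the 10 members was called in any of the 7 comparisons, by an adjusted p under 0.05 (limma, Benjamini-Hochberg over all 17111 genes) with an increase or decrease of more than 25%, or by the adjusted p alone for the interaction of genotype and co-treatment. Among all genes tested, 0.257% were called for VEH-CD against VEH-WT, 0.146% for VERCUR-CD against VERCUR-WT and 0.199% for VERCUR-CD against VEH-WT. The share was 0% for VERCUR-CD against VEH-CD, for VERCUR-WT against VEH-WT, for the co-treatment averaged over both genotypes and for the interaction, so a call of 0 members is what the whole table gives there as well. At an unadjusted p under 0.05, 1 of 10 members passed for VEH-CD against VEH-WT (11.8% of all genes), 1 for VERCUR-CD against VEH-CD (3.54%), 1 for VERCUR-WT against VEH-WT (5.22%), 0 for VERCUR-CD against VERCUR-WT (4.10%) and 3 for VERCUR-CD against VEH-WT (8.68%). There was 1 for the averaged co-treatment (2.96%) and 2 for the interaction (6.05%). limma's voom on the recovered whole reads, an alternative chosen after the data were seen, also called 0 members in each comparison. The 3 comparisons with VEH-WT share these 3 mice, and comparisons with a group in common are not independent of each other.

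**Figure D2:**
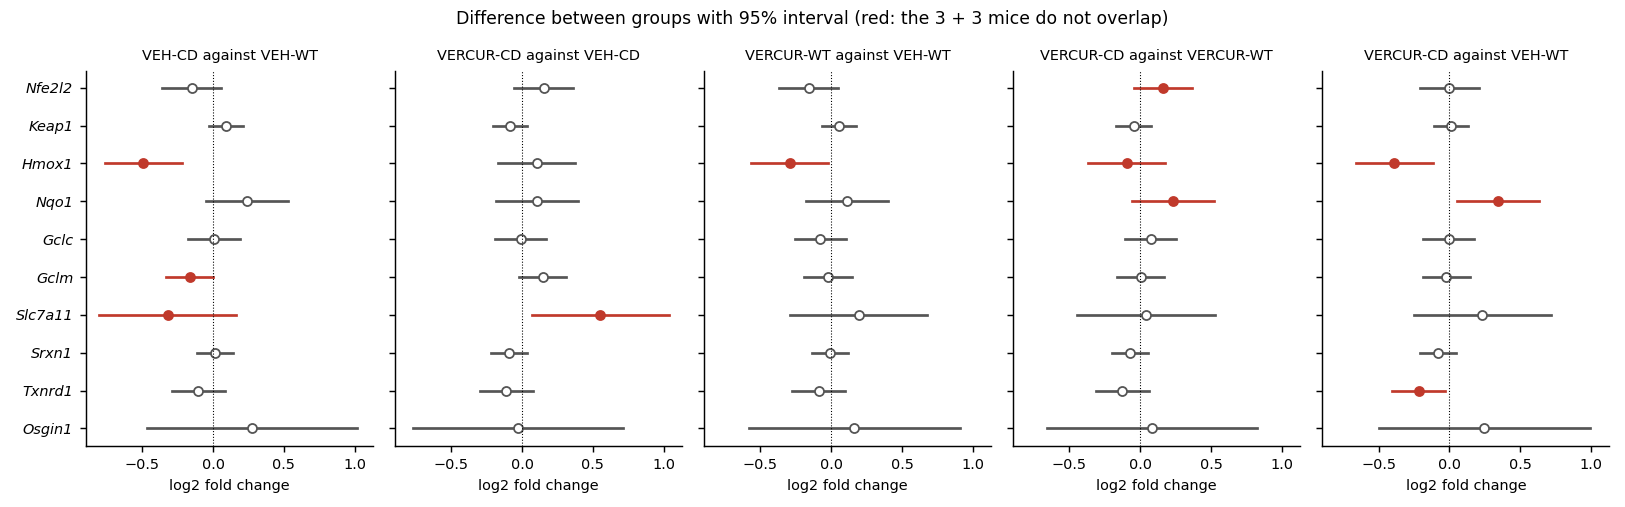
Log2 fold change of each member in 5 comparisons, with its 95% interval from limma on log2(normalized count + 1). Filled red points mark members whose 3 mice in one group all lie above or all below the 3 of the other, with Hmox1 red in each comparison except VERCUR-CD against VEH-CD.

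Nfe2l2, on chromosome 2 (75675513 to 75704641, minus strand), was not called in any comparison. The VEH-WT mice had 614, 662 and 783 normalized counts, the VEH-CD mice 593, 577 and 677, and the co-treated mice 626, 618 and 590 in VERCUR-WT and 684, 705 and 659 in VERCUR-CD mice. The means were 686 ± 87.1, 616 ± 53.4, 611 ± 18.7 and 683 ± 22.9 normalized counts (SD, n = 3). VEH-WT and VEH-CD overlapped, as did VEH-CD and VERCUR-CD, because a VEH-CD mouse (677) stood above the lowest VERCUR-CD mouse (659).

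The log2 fold change of Nfe2l2 was −0.15 (95% interval −0.36 to 0.05, adjusted p = 0.555, limma) for VEH-CD against VEH-WT, 0.15 (−0.05 to 0.36, adjusted p = 0.867) for VERCUR-CD against VEH-CD, and −0.16 (−0.37 to 0.05, adjusted p = 0.980) for VERCUR-WT against VEH-WT. Between VERCUR-CD and VEH-WT it was −0.0005, with an interval from −0.21 to 0.21. The treatment contrasts differed in sign between CD and WT mice, and their difference was 0.31 (0.02 to 0.60), with an unadjusted p of 0.0379 and an adjusted p of 0.816 in limma's interaction term. VERCUR-CD mice all lay above VERCUR-WT mice. Without VEH-WT replicate 3, the highest of its group, the difference was −0.05 for VEH-CD and −0.06 for VERCUR-WT against VEH-WT. An exact Kruskal–Wallis test, the kind of test that the study names for this gene, was computed here on the deposited normalized counts of the 9 VEH-WT, VEH-CD and VERCUR-CD mice. Over all 1680 partitions of these mice it gave H = 2.49 and an exact p = 0.339. Since the gene was singled out on these samples, the test is not independent evidence, and the values that entered the published test were not analysed here.

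Keap1, the cysteine-rich adaptor that targets NRF2 for degradation, varied little. It ranged from 3762 to 4042 normalized counts in VEH-WT, from 3970 to 4271 in VEH-CD, from 3964 to 4108 in VERCUR-WT and from 3697 to 4054 in VERCUR-CD mice. Every pair of groups overlapped. Its log2 fold change was 0.09 (−0.03 to 0.21) for VEH-CD against VEH-WT and −0.01 (−0.10 to 0.07) for the averaged co-treatment. In the GENCODE M21 annotation, Keap1 shares 510 bases (10.9% of its exons) with the antisense gene Gm16754. Whether the counting used strand is not given in the sources used here, so reads of these bases cannot be assigned with certainty.

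**Figure D3:**
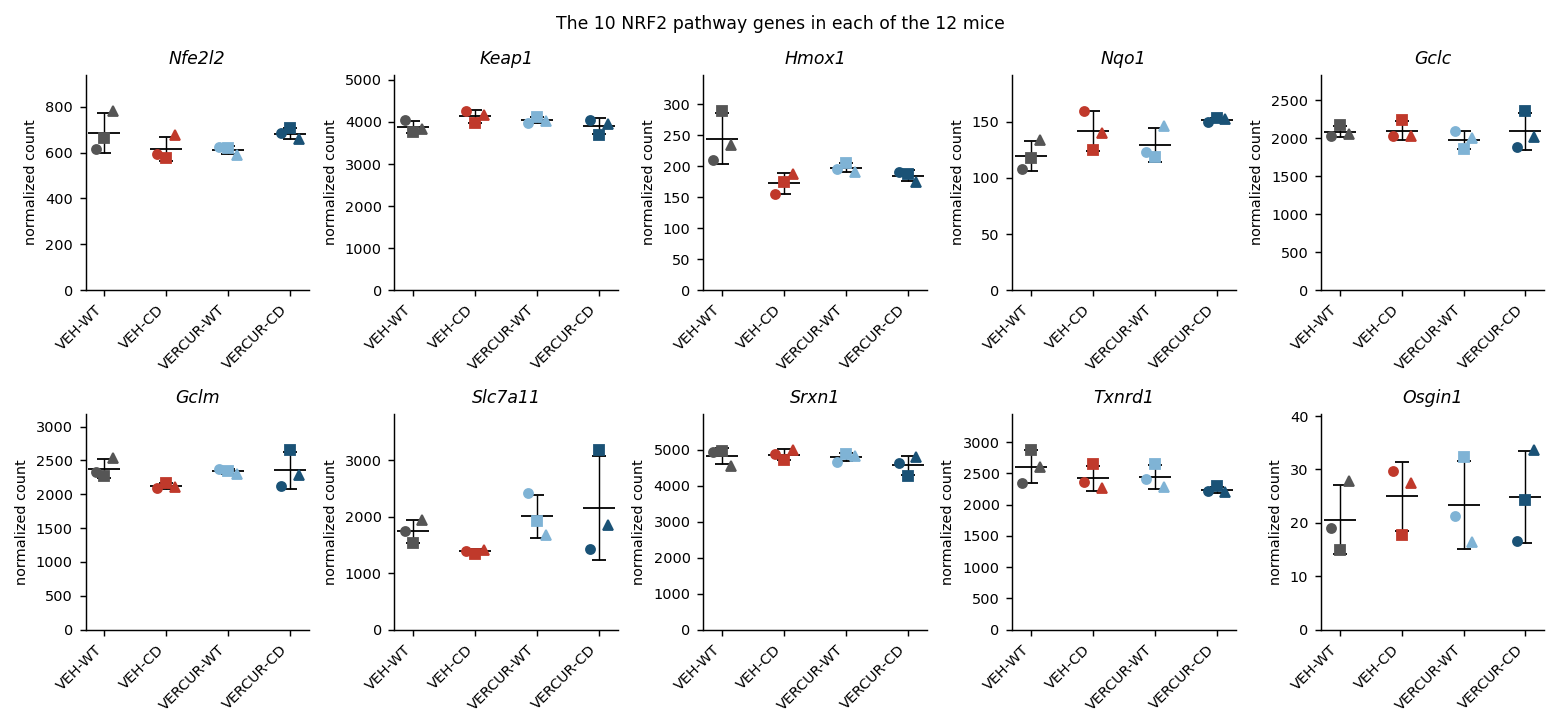
Normalized counts of the 10 members in each mouse (axes from 0), with circles, squares and triangles for replicates 1, 2 and 3, and bars for the mean and SD of 3 mice. Hmox1 is highest in the 3 VEH-WT mice, Slc7a11 is lowest in the 3 VEH-CD mice and Nqo1 lies between 150 and 153 in VERCUR-CD.

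Hmox1 had the smallest unadjusted p of the members for VEH-CD against VEH-WT. It encodes heme oxygenase-1, the inducible enzyme that degrades heme into biliverdin, iron and carbon monoxide, and is one of the best known targets of NRF2. The VEH-WT mice had 210, 290 and 234 normalized counts, against 155, 174 and 188 in VEH-CD, 196, 206 and 191 in VERCUR-WT and 191, 188 and 175 in VERCUR-CD mice. All 3 VEH-WT mice, the lowest at 210, lay above all 9 other mice, the highest of which was a VERCUR-WT mouse at 206. How many of all genes set VEH-WT apart in this way was not computed. For VEH-CD against VEH-WT alone, 11.4% of all genes were lower and 9.28% higher without overlap.

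The level of Hmox1 in VEH-CD mice was 0.711-fold that in VEH-WT mice (95% interval 0.589 to 0.858, log2 fold change −0.49 ± 0.13 SE, unadjusted p = 0.00186, adjusted p = 0.159, limma). Against the same VEH-WT mice, the fold was 0.817 (0.676 to 0.986, adjusted p = 0.944) in VERCUR-WT and 0.763 (0.632 to 0.921, adjusted p = 0.415) in VERCUR-CD mice. Without VEH-WT replicate 2, the log2 fold change moved from −0.29 to −0.16 for VERCUR-WT and from −0.39 to −0.26 for VERCUR-CD mice. VERCUR-CD mice also lay below VERCUR-WT mice, with a fold of 0.935 and an interval that held 1 (0.774 to 1.13). The margin was very narrow, with the highest VERCUR-CD mouse at 191.08 and the lowest VERCUR-WT mouse at 191.47 normalized counts. Between VERCUR-CD and VEH-CD mice the fold was 1.07 (0.889 to 1.30) and the mice overlapped. The interaction of genotype and co-treatment was 0.39 on the log2 scale (0.01 to 0.78, adjusted p = 0.816). The difference between VEH-CD and VEH-WT ranged from −0.60 to −0.36 when single mice were left out, the second of these without VEH-WT replicate 2. An alternative fit removed the most deviant value of each group with a coefficient of variation of 20% or more. By its construction it narrows the spread over the table, and it called 972 genes in this comparison, against 44 in the main fit. No value of Hmox1 was removed, and Hmox1 was among those called (adjusted p = 0.0215, limma). Its adjusted p depends on all genes, so this call is not independent evidence for Hmox1.

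The activity-dependent genes were, like Hmox1, highest in VEH-WT mice. The 8 immediate early genes, transcription factors and effectors that neurons switch on with activity, had a median level relative to VEH-WT of 0.754 to 1.247 in VEH-WT mice, 0.252 to 0.533 in VEH-CD, 0.237 to 0.714 in VERCUR-WT and 0.420 to 0.595 in VERCUR-CD mice. All 8 had a log2 fold change below 0 for VEH-CD against VEH-WT, with 0 called and a smallest adjusted p of 0.105 (limma). At an unadjusted p under 0.05, 7 of the 8 passed, against 11.8% of all genes. Their summed normalized counts ran from 54120 to 92240 in VEH-WT and from 15271 to 36330 in VEH-CD mice, and none was at 0. Macrophages, which clear heme, are another known site of Hmox1: the 6 markers of border-associated macrophages summed to 341 to 369 normalized counts in VEH-WT and to 243 to 405 in VEH-CD mice, so the groups overlapped. The VEH-CD median of 251 was below every VEH-WT mouse. Single markers differed in direction, with 3 log2 fold changes above 0 and 3 below (−0.97 to 0.57). The 6 microglia markers summed to 14315 to 16974 in VEH-WT and to 15680 to 18161 in VEH-CD mice, which also overlapped. The 5 genes of red blood cells went the other way from Hmox1, with log2 fold changes from 0.25 to 0.46 for VEH-CD against VEH-WT and 0 called. The part of these lists in the values of Hmox1 was not tested.

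**Figure D4:**
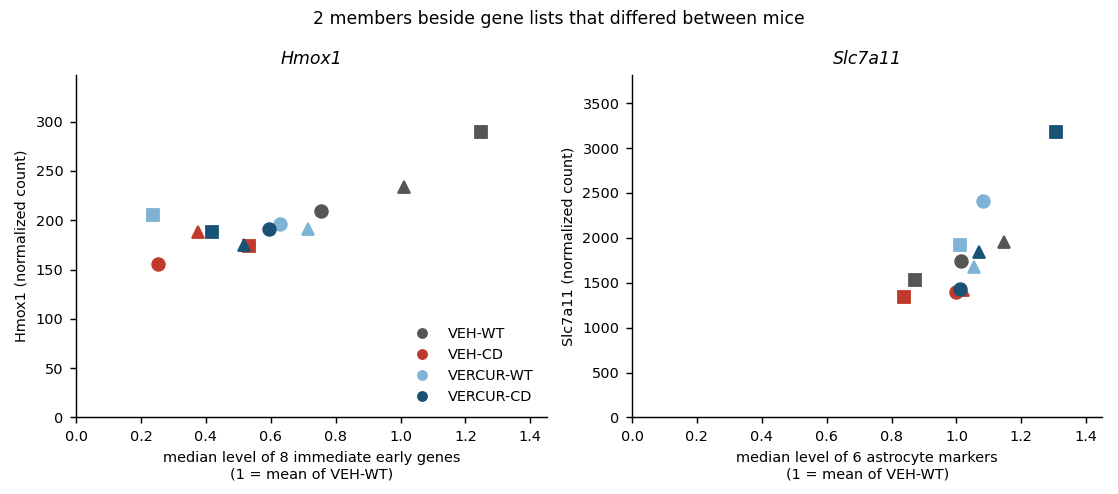
Left, normalized counts of Hmox1 against the median level of 8 immediate early genes, and right, those of Slc7a11 against 6 astrocyte markers, relative to the VEH-WT mean, with 1 point per mouse (circle, square and triangle for replicates 1, 2 and 3). The VEH-WT mice have the 3 highest values on both axes of the left panel, and VERCUR-CD replicate 2 has the highest on both axes of the right one.

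Nqo1 encodes NAD(P)H quinone dehydrogenase 1, which reduces quinones without forming radicals. Its normalized counts were 108, 118 and 134 in VEH-WT, 160, 124 and 140 in VEH-CD, 123, 119 and 147 in VERCUR-WT and 150, 153 and 152 in VERCUR-CD mice. The 3 VERCUR-CD mice lay close together and above every WT mouse, treated or not, while VEH-CD overlapped with both WT groups. The margin was narrow, with the lowest VERCUR-CD mouse at 150.07 and the highest WT mouse, from VERCUR-WT, at 146.62. The fold was 1.27 (1.04 to 1.55, adjusted p = 0.497, limma) for VERCUR-CD against VEH-WT, 1.17 (0.961 to 1.43, adjusted p = 1.00) against VERCUR-WT and 1.08 (0.881 to 1.32, adjusted p = 0.889) against VEH-CD mice. In VEH-CD against VEH-WT it was 1.18 (0.965 to 1.44). The interaction was −0.01 on the log2 scale (−0.41 to 0.40). Averaged over both genotypes, the co-treatment gave a fold of 1.08, with an interval from 0.936 to 1.24.

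Of the genes for glutathione supply, the cystine transporter varied most. Slc7a11 encodes xCT, which brings cystine into the cell in exchange for glutamate. Its normalized counts were 1742, 1531 and 1949 in VEH-WT, 1398, 1347 and 1416 in VEH-CD, 2412, 1915 and 1681 in VERCUR-WT and 1433, 3183 and 1847 in VERCUR-CD mice. VEH-CD mice were the 3 lowest of the 12, with a highest value of 1416 against a lowest of 1433 among the other 9. How many of all genes show this was not computed. A single VERCUR-CD mouse, replicate 2, stood far above the rest of its group.

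For VEH-CD against VEH-WT the fold of Slc7a11 was 0.801 (0.572 to 1.12, adjusted p = 0.598, limma), and for VERCUR-CD against VEH-CD it was 1.47 (1.05 to 2.05, unadjusted p = 0.0286, adjusted p = 0.867). Without VERCUR-CD replicate 2 the log2 fold change of the latter dropped from 0.55 to 0.23, although the other VERCUR-CD mice still lay above the 3 VEH-CD mice. In WT mice the fold with co-treatment was 1.14 (0.817 to 1.60), and averaged over both genotypes it was 1.29 (1.02 to 1.64, adjusted p = 1.00), or 0.21 in place of 0.37 on the log2 scale without that mouse. The same mouse had the highest median level of the 6 astrocyte markers, 1.31 relative to VEH-WT, against 0.839 to 1.15 in the other mice, and also the highest Gclm (2657) and Gclc (2363) and the lowest Keap1 (3697) and Srxn1 (4268). None of the astrocyte markers was at 0. Their part in the level of Slc7a11 was not tested. VERCUR-CD replicate 2 also stood out beyond astrocyte genes. Its median level of the 6 excitatory neuron markers was the highest, 1.14 against 0.891 to 1.07 in the other mice. Its normalized counts were the highest for Gsk3b (13130) and Cul3 (7700) and the lowest for Sod1 (6187) and Sqstm1 (19943). The sum of its normalized counts was also the highest, 50772400 against at most 49096900. The part of this in its Slc7a11 level was not tested.

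Gclc and Gclm encode the catalytic and modifier subunits of glutamate-cysteine ligase, the first and rate-limiting enzyme of glutathione synthesis. Gclm had 2332, 2273 and 2534 normalized counts in VEH-WT mice, against 2087, 2169 and 2101 in VEH-CD, 2377, 2343 and 2294 in VERCUR-WT and 2120, 2657 and 2282 in VERCUR-CD mice. VEH-CD mice lay below all VEH-WT mice, by a fold of 0.891 (0.793 to 1.00, unadjusted p = 0.0521, adjusted p = 0.428, limma). The fold for VERCUR-CD against VEH-CD was 1.11 (0.984 to 1.24) with overlapping mice. The modifier subunit's exons overlap those of Gm17494 (296 bases, opposite strand) and Gm6061 (244 bases, same strand), both in the table, so a part of its reads is uncertain. Gclc ranged from 2033 to 2170 normalized counts in VEH-WT, from 2023 to 2240 in VEH-CD, from 1852 to 2088 in VERCUR-WT and from 1888 to 2363 in VERCUR-CD mice, and every pair of groups overlapped. Its fold was 1.00 (0.885 to 1.14) for VEH-CD against VEH-WT and 0.970 (0.887 to 1.06) for the averaged co-treatment.

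Txnrd1, the cytosolic thioredoxin reductase, and Srxn1 serve thiol repair. Txnrd1 had 2341, 2877 and 2607 normalized counts in VEH-WT mice, against 2356, 2645 and 2262 in VEH-CD, 2412, 2658 and 2279 in VERCUR-WT and 2216, 2291 and 2203 in VERCUR-CD mice. VERCUR-CD mice all lay below the VEH-WT mice, with a fold of 0.860 (0.756 to 0.979, unadjusted p = 0.0262, adjusted p = 0.503, limma), and the log2 fold change of −0.22 became −0.14 without VEH-WT replicate 2. The other pairs of groups overlapped, and the averaged co-treatment gave 0.933-fold (0.852 to 1.02). Srxn1 ranged from 4268 to 4993 normalized counts over all 12 mice and every pair of groups overlapped. Its fold was 1.01 (0.925 to 1.10) for VEH-CD against VEH-WT and 0.966 (0.907 to 1.03) for the averaged co-treatment. Osgin1 ranged from 15.0 to 33.7 normalized counts, overlapped between every pair of groups and had a fold of 1.05 for the averaged co-treatment with a wide interval (0.728 to 1.51).

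Counted over the members, the groups did not overlap for 3 of 10 in VEH-CD against VEH-WT, all lower (Hmox1, Gclm and Slc7a11). Among all genes, 11.4% were lower and 9.28% higher without overlap in this comparison. For VERCUR-CD against VEH-CD 1 of 10 was higher (Slc7a11), beside 3.71% of all genes higher and 4.63% lower. In WT mice 1 of 10 was lower with co-treatment (Hmox1), beside 5.25% lower and 4.48% higher. VERCUR-CD against VERCUR-WT had Nfe2l2 and Nqo1 higher and Hmox1 lower, the last by a very narrow margin, beside 3.91% higher and 3.83% lower. For VERCUR-CD against VEH-WT, Nqo1 was higher and Hmox1 and Txnrd1 were lower, beside 6.56% higher and 7.33% lower. With 10 members, each of these shares rests on 1 to 3 genes. Shares over all genes were computed only for pairs of groups. They were not computed for a group apart from all other mice, as given for Hmox1, Slc7a11, Maff and Gpx3, or apart from both WT groups, as given for Nqo1. The median log2 fold change over the members was −0.05 for VEH-CD against VEH-WT, 0.05 for VERCUR-CD against VEH-CD and −0.01 for the averaged co-treatment, against −0.003, 0.003 and 0.0002 over all genes tested.

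No member was found to vary with the mRNA of the factor from mouse to mouse beyond the adjusted threshold. Over the 12 mice, the correlation of log2 levels with Nfe2l2 ran from r = −0.52 for Keap1 (permutation p = 0.0839, rho = −0.41, permutation p = 0.185) to r = 0.49 for Gclm (permutation p = 0.109, rho = 0.31, permutation p = 0.320), with Hmox1 at r = 0.42 (permutation p = 0.178, rho = 0.30, permutation p = 0.343). Without VEH-WT replicate 3 and VEH-CD replicate 2, which lay farthest from the median of Nfe2l2, r was −0.55 for Keap1, 0.22 for Gclm and 0.19 for Hmox1. As deviations from the group means, r was −0.22, 0.40 and 0.32 in the same order. Srxn1, also a target, had the opposite sign to Gclm and Hmox1, with r = −0.48 (permutation p = 0.114, rho = −0.38, permutation p = 0.228). Its r was −0.51 without the same mice and −0.42 as deviations from the group means. These are only a part of the 9 relations computed. Adjusted over all 17110 other genes, the smallest adjusted p of a member was 0.855 (limma). The 3 genes most like Nfe2l2 by r over the 12 mice were Slc31a1, a copper transporter (0.80), Lamc3, a laminin chain (0.80), and Acot6, an acyl-CoA thioesterase (0.78), and no gene had an adjusted p under 0.05.

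A wider set of 62 genes in 6 lists from the same pathways gave 0 calls in any of the 7 comparisons (limma). For VEH-CD against VEH-WT, 37 had a log2 fold change above 0 and 25 below, with a median of 0.04, and 4 (6.45%) had an unadjusted p under 0.05, against 11.8% of all genes. The averaged co-treatment had 31 above and 31 below, a median of −0.003 and again 4 under 0.05, against 2.96% of all genes.

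Among the regulators and partners of NRF2, Maff, a small MAF protein that pairs with it, had its lowest mean in VEH-CD mice. Its normalized counts were 38.1, 71.6 and 59.1 in VEH-WT, 19.4, 13.2 and 31.1 in VEH-CD, 36.8, 22.2 and 28.5 in VERCUR-WT and 34.0, 23.4 and 24.1 in VERCUR-CD mice. The 3 VEH-WT mice lay above all others, by a narrow margin (38.1 against 36.8 in a VERCUR-WT mouse), and the share of all genes that do so was not computed. VEH-WT mice were also the highest for Hmox1 and for the median level of the immediate early genes given with it, whose part was not tested. The fold for VEH-CD against VEH-WT was 0.380 (0.232 to 0.621, unadjusted p = 0.00100, adjusted p = 0.130), on 15 to 68 reads per mouse. Mafk, a second small MAF, had the smallest p of the list for the averaged co-treatment, with a fold of 0.914 (0.823 to 1.01).

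Gpx3, the secreted glutathione peroxidase, led the other antioxidant enzymes. It had 263, 292 and 289 normalized counts in VEH-WT mice, against 356, 398 and 380 in VEH-CD, 398, 323 and 338 in VERCUR-WT and 413, 364 and 426 in VERCUR-CD mice. Every VEH-WT mouse was thus below every other mouse, and the share of all genes with this pattern was not computed. The fold against VEH-WT was 1.34 (1.15 to 1.57, adjusted p = 0.143) in VEH-CD and 1.42 (1.22 to 1.66, adjusted p = 0.106) in VERCUR-CD mice, and it was 1.15 (1.03 to 1.28, adjusted p = 1.00) for the averaged co-treatment. Between VERCUR-CD and VEH-CD mice the fold was only 1.06 (0.908 to 1.23) and the mice overlapped.

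Mgst1, a microsomal glutathione transferase, had the smallest unadjusted p for the averaged co-treatment among the glutathione genes. It had 147, 112 and 178 normalized counts in VEH-WT mice, against 179, 156 and 183 in VEH-CD, 191, 236 and 206 in VERCUR-WT and 211, 216 and 208 in VERCUR-CD mice. All 6 co-treated mice, the lowest at 191, lay above all 6 vehicle mice, the highest at 183. The share of all genes with such a separation was not computed. The fold was 1.34 (1.14 to 1.58, unadjusted p = 0.00194, adjusted p = 1.00, limma). Gsta4, a transferase that conjugates lipid aldehydes, had the smallest p of this list for VEH-CD against VEH-WT, with a fold of 1.14 (1.02 to 1.28, adjusted p = 0.331).

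Isoenzymes of members and the leading genes of the remaining lists were not called either. Hmox2, the constitutive heme oxygenase, had a fold of 1.06 (0.952 to 1.17) for VEH-CD against VEH-WT, and at 1396 ± 80.7 normalized counts per kb (SD, n = 12) it was far more abundant than Hmox1 at 114 ± 19.7. Nqo2, a quinone reductase related to Nqo1, had a fold of 1.00 (0.864 to 1.16) in the same comparison and of 1.11 (1.00 to 1.23, adjusted p = 1.00) for the averaged co-treatment, the smallest p of the detoxification list. The smallest p of the heme and iron list belonged to Fth1, the ferritin heavy chain, for VEH-CD against VEH-WT (1.11-fold, 0.956 to 1.30) and to Fech, ferrochelatase, for the co-treatment (1.06-fold, 0.966 to 1.17). In the thioredoxin and NADPH list they were Txn1, thioredoxin (1.05-fold, 0.958 to 1.16), and G6pdx, glucose-6-phosphate dehydrogenase (0.942-fold, 0.873 to 1.02). Ugt1a6a, a glucuronosyltransferase, had a fold of 1.20 (0.941 to 1.54) for VEH-CD against VEH-WT.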

How the data were processed

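Cortex RNA from 12 mice, 3 in each of 4 groups, was analysed, with groups taken from the labels and columns from their sample names (0 columns were unmatched). Per the submitters' processing notes and the study's methods, STAR 2.5.3a placed the read pairs on GRCm38 (FastQC is also named). The authors deposited normalized counts per gene. The counting program and annotation release are not given in the sources used here. In every mouse 1 step divided 100% of the low values into whole numbers (tolerance 0.1 of a step), which gave the reads counted. The 2 tables of relative expression that the authors also deposited were not used.

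Tests used limma 3.58.1 (R 4.3.3) on log2(normalized count + 1) for the 17111 genes with a mean of at least 10, as 1 fit of 4 group means with an intensity trend. Two-sided p values were adjusted after Benjamini and Hochberg. A fold change is on this scale and understates changes of low genes. The sources used here do not say which mice shared a litter or cage, so p values measure the spread between these samples. On simulated data for VEH-CD against VEH-WT (17111 genes), 77 of 100 genes changed by 1 and 50 of 100 changed by 0.6 on the log2 scale were called, with 4 false calls. Noise was drawn separately for each gene, so differences shared by the genes of a mouse were not simulated. Both sizes exceed the largest change of a member in this comparison (Hmox1, −0.49), so calls at the size of the members were not measured. The other comparisons were not simulated.

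Members, lists and tests were chosen with earlier results of these data known. Beside the members, the text names the genes with the smallest p of each pathway list for VEH-CD against VEH-WT and for the averaged co-treatment. It also names Hmox2, Nqo2, the 3 genes most correlated with Nfe2l2 and the pathway genes given for VERCUR-CD replicate 2. Exon lengths and positions are from GENCODE M21, and promoters from RefSeq. Hmox1 and Gclc had no promoter entry.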

Additional observations from a re-analysis of the deposited data

How the results depend on the processing

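In every alternative run, 0 members were called in each of the 7 comparisons, except that removing single values from groups with a coefficient of variation of 20% or more called 1 member, Hmox1, for VEH-CD against VEH-WT. That alternative called 972 genes for VEH-CD against VEH-WT, 241 for VERCUR-CD against VEH-CD, 649 for VERCUR-WT against VEH-WT, 448 for VERCUR-CD against VERCUR-WT, 840 for VERCUR-CD against VEH-WT, 442 for the averaged co-treatment and 492 for the interaction, where the main values were 44, 0, 0, 25, 34, 0 and 0. By its construction it takes the most deviant values out of the spread. Leaving out single mice gave 24 to 71 genes for VEH-CD against VEH-WT, the lowest without VEH-WT replicate 2, VEH-CD replicate 1 or VEH-CD replicate 3 and the highest without VERCUR-CD replicate 2. The difference of Nfe2l2 between VERCUR-CD and VEH-WT, near 0, changed sign to 0.0081 with quantile normalization and to 0.00063 with median centring, and ranged from −0.077 to 0.098 when single mice were left out; for the averaged co-treatment it then ranged from −0.042 to 0.045. The exact Kruskal–Wallis p of Nfe2l2 was 0.164 to 0.671 without single mice. Samples sharing a replicate number did not deviate together (r from −0.35 to 0.27), and 1 of 12 correlated best with its own number. The replicate block gave 40 genes for VEH-CD against VEH-WT and 0 members. edgeR and DESeq2 were planned for raw counts and were not run on the reads recovered from the normalized values. On these reads limma's voom was run in their place. Osgin1 had the fewest reads of the members, 13 to 35 per mouse.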
